A study of Mus musculus with 10 samples.

Results

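The genes described here make and handle sterols and fatty acids: the enzymes of the mevalonate and sterol pathway, the proteins that control SREBP, carriers and exporters of sterol, and the enzymes of acetyl-CoA supply and fatty acid synthesis. They were chosen as a list of 37 gene symbols, and each was read from the row of the expression table whose symbol equals it, or from the row with the highest mean where there were several. Of the 37, 31 had a row of their own among the 18430 rows of the table. Another 5 (Fdps, Tm7sf2, Ebp, Srebf1 and Acat2) stood only in rows that join several neighbouring genes, and the expression of Mvd was not analysed here. All 31 passed the filter for testing, which asked for at least 1 RPKM (reads scaled by transcript length and by the size of the library) in at least 2 libraries.

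Cholesterol is built from acetyl-CoA through mevalonate, isoprenoid diphosphates, squalene and lanosterol. SREBP transcription factors are held in the endoplasmic reticulum membrane by SCAP and INSIG when sterol is plentiful. When membrane sterol falls, SCAP carries SREBP to the Golgi, where it is cleaved, and the released factor switches on genes for sterol synthesis (mainly SREBP2, from Srebf2) and for fatty acid synthesis (mainly SREBP1, from Srebf1). Fibroblasts in culture make their own sterol and draw on lipoproteins of the serum, so both arms are expressed in them.

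The libraries came from NIH3T3, a long-established fibroblast line derived from mouse embryos, and the study asked how the transcripts of these cells change when FOXP2, a forkhead transcription factor, or FOXP2-CPED1 is overexpressed. There were 4 clones stably overexpressing FOXP2-CPED1, 4 clones stably overexpressing FOXP2, and, as the control, 1 culture stably carrying the vector and 1 culture of parental cells. With 1 library per clone and per control culture, errors within a construct describe how clones differ, and the control holds 2 different cultures. The promoter of the constructs, the species of the inserts and whether the vector cells are a clone are not stated in the sources at hand.

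Summed RPKM lay between 794682 and 944602 per library, and relative depth between 0.913 and 1.32 of the parental library, while absolute depth is unknown. Spearman correlations between libraries ran from 0.925 to 0.982, and no 2 libraries were identical. The mouse Foxp2 row stood at 0.0674 to 0.330 RPKM with FOXP2-CPED1 and 0.145 to 1.02 RPKM with FOXP2, against 0.0785 and 0.0798 RPKM in the controls. The Cped1 row stood at 6.69 to 25.4 RPKM with FOXP2-CPED1 and 6.43 to 31.0 RPKM with FOXP2, against 24.2 and 27.0 RPKM in the controls. Of 11 fibroblast markers 9 had a row. Col1a1 ranged from 889 to 1239 RPKM in the clones and from 960.0 to 992 RPKM in the controls. Below both controls in every clone were 2 of the 9, against 6.38% of all tested rows. These were Vim, at 1295 to 2420 RPKM against 2794 to 3140 RPKM, and Thy1, at 61.8 to 135 RPKM against 149 to 156 RPKM. Of 9 adipocyte markers 3 had a row. Lpl, the highest, stood at 14.5 to 84.8 RPKM in the clones and overlapped the controls, at 65.6 to 71.9 RPKM. Fabp4 stood at 0.470 to 3.97 RPKM in the clones and 5.01 to 5.09 RPKM in the controls. Pparg stood at 0 to 0.111 RPKM in the clones and 0.586 to 0.588 RPKM in the controls, too low in every library to pass the filter for testing. Mitochondrial rows were listed at 0 in FOXP2-CPED1 clone 3 and FOXP2 clones 2 and 4, and their sum elsewhere was 33213 to 41130 RPKM.

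Transcripts of the sterol enzymes lay above the controls in most clones of both constructs. Both arms held some enzymes above the controls in every clone and others that overlapped them. The fatty acid arm also had fold changes of both signs, and Me1 lay below both controls in every FOXP2 clone. All 13 sterol enzymes with a row of their own had a positive log2 fold change with FOXP2-CPED1 (median 0.58) and with FOXP2 (median 0.86), where the medians over all 12842 tested rows were 0.00 and 0.02. Of the 11 acetyl-CoA and fatty acid enzymes, 6 were positive with FOXP2-CPED1 (median 0.24) and 10 with FOXP2 (median 0.37). Among all tested rows 50.3% were positive with FOXP2-CPED1 and 52.3% with FOXP2. Only Acly, which splits citrate to give cytosolic acetyl-CoA, passed the test, in FOXP2 clones and in all clones together. Fold changes are differences of means of log2(RPKM + 1), which understate the change of low genes, and both constructs were set against the same 2 controls. In bulk cultures fewer cells of a kind and less RNA per cell cannot be told apart.

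The counts read as follows against the rest of the table. With FOXP2-CPED1, no member passed limma's test at an adjusted p of 0.05 (0.0234% of all tested rows were called higher and 0.327% lower), and 10 of the 31 members had an unadjusted p under 0.05, all higher (2.67% of all rows were higher at that p and 4.61% lower). In 18 members every FOXP2-CPED1 clone lay above both controls, which held for 12.2% of all rows, and in none did every clone lie below both, which held for 13.3%. With FOXP2, 1 member was called higher and none lower (0.0389% and 0.397% of all rows), and 17 had an unadjusted p under 0.05, all higher (3.44% of all rows higher and 5.08% lower). In 17 members every FOXP2 clone lay above both controls (9.13% of all rows), and 1 member, Me1, lay below both in every clone (10.4%). Over all 8 clones, 1 member was called higher and none lower (0.0389% and 0.498% of all rows), and 16 members were above both controls in every clone (5.44% of rows), with none below both (6.38%). At an unadjusted p under 0.05, 17 members were higher and none lower over all clones (3.56% and 5.54% of all rows).

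**Figure D1:**
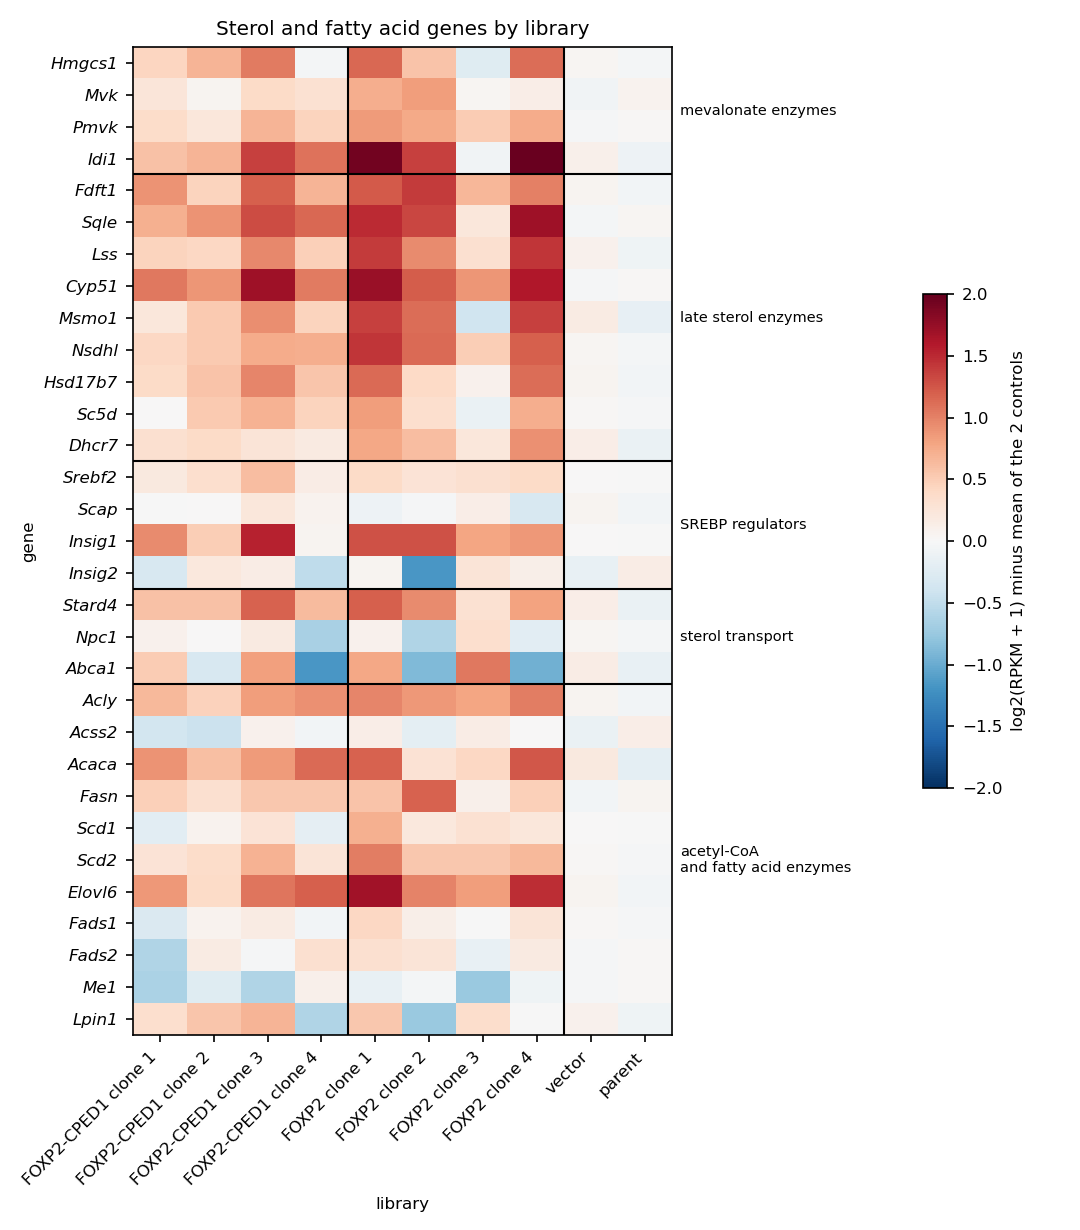
Each row is a gene and each column a library, and colour gives log2(RPKM + 1) minus the mean of the 2 controls, from blue (lower) to red (higher). The rows of the mevalonate and late sterol enzymes are red across most clones, with FOXP2 clone 3 pale, while the fatty acid rows differ from gene to gene.

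The DNA just before the start sites is shown for 3 sterol enzymes as examples, and for Acly as the gene that passed the test. Of the 3, Hmgcs1 overlapped the controls with both constructs, Idi1 with FOXP2 only, and Cyp51 with neither. The windows run from 250 bases before to 50 bases after the start of the RefSeq transcript on GRCm38.p6, were matched to the members by symbol, and are given on the gene's own strand. Of the 37 members 29 had a window, Mvd and the 4 genes Acat2, Ebp, Srebf1 and Tm7sf2 of joined rows among them; Fdps, Fdft1, Sqle, Scd1, Scd2, Fads1, Stard4 and Npc1 did not. Capitals mark the NF-Y box CCAAT or its reverse complement ATTGG, and in Hmgcs1 also the core of a sterol regulatory element. NF-Y is a factor known to act beside SREBP at many of its targets. The windows are chr13:119690101-119690400 (plus strand) for Hmgcs1, chr13:8885356-8885655 (plus strand) for Idi1, chr5:4104648-4104947 (minus strand) for Cyp51 and chr11:100527951-100528250 (minus strand) for Acly.
Hmgcs1: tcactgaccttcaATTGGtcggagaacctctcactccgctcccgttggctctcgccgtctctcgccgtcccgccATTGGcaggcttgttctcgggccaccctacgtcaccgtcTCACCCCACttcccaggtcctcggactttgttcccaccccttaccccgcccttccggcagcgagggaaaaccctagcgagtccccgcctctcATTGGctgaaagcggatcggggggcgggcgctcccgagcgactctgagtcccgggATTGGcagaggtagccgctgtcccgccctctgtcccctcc
Idi1: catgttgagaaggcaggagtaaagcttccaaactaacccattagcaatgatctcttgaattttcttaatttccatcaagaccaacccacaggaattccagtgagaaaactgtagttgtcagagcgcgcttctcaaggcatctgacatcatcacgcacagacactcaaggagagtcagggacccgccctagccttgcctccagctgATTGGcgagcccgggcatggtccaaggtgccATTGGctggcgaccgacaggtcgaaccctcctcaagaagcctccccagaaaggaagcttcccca
Cyp51: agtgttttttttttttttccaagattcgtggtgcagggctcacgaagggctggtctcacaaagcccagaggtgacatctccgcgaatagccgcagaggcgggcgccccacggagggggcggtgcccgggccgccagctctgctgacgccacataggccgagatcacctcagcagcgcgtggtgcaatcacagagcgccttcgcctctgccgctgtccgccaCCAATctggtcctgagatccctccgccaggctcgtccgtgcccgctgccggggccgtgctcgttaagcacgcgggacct
Acly: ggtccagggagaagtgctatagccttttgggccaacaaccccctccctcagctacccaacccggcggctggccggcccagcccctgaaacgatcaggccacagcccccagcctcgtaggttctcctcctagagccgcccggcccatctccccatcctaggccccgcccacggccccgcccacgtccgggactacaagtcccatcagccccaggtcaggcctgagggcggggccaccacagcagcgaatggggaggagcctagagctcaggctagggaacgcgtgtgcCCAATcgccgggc

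Of 15 sterol enzymes with a window, 14 held the NF-Y box on either strand, all but Acat2. Some genes had several windows, 38 for the 29 members, and a gene was counted if any of its windows matched. This rule holds for all counts and shares of genes given here. Pmvk, Dhcr7, Me1, Insig2 and Srebf1 each held the NF-Y box in some of their windows only. These 15 are not the set whose expression was tested: Mvd, Acat2, Ebp and Tm7sf2 had no row of their own, and Fdft1 and Sqle had no window. The box was present for 4 of 8 acetyl-CoA and fatty acid enzymes (Acly, Acss2, Fasn and Me1) and 4 of 5 SREBP regulators, against 41.1% of the 27025 genes in the RefSeq table and 44.2% of 7925 genes that were tested here and had a window. Hmgcs1 carried it 4 times, Idi1 2 times and Cyp51 once, 29 bases before the start; in Acly it lay after the start. The sterol regulatory element core, searched as TCACNCCAC on both strands, was found in Hmgcs1 alone of the 29, and in 1.44% of all genes. Elements that depart from these letters were not searched for, so a window without a match may still hold one. The GC box GGGCGG was found for 24 of 29 members and 70.1% of the tested genes, and the E-box CACGTG for 6 of 29 and 11.9%. No match overlapped another in the windows shown. These matches describe letters in a window and not binding, and the expression table itself was made on mm9.

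In the mevalonate pathway, the first stretch of sterol synthesis, 4 of 7 listed enzymes could be read. Pmvk, the kinase that makes mevalonate diphosphate, stood at 12.7, 11.5, 16.1 and 13.5 RPKM in FOXP2-CPED1 clones 1 to 4 and at 18.3, 16.96, 14.2 and 16.9 RPKM in FOXP2 clones 1 to 4, against 9.43 RPKM with vector and 9.86 RPKM in parental cells. Every clone lay above both controls. Its log2 fold change was 0.43 ± 0.16 (SE) with FOXP2-CPED1 (limma adjusted p = 0.529) and 0.72 ± 0.16 with FOXP2 (adjusted p = 0.118). Idi1, the isomerase that readies isoprenoid diphosphates for joining, stood at 21.0, 22.5, 36.7 and 30.2 RPKM in FOXP2-CPED1 clones and at 54.5, 36.6, 12.9 and 56.6 RPKM in FOXP2 clones, against 14.7 RPKM with vector and 12.6 RPKM in parental cells. FOXP2 clone 3 lay between the controls, while the other 7 clones were above them. The log2 fold change of Idi1 was 0.93 ± 0.50 with FOXP2-CPED1 (limma adjusted p = 0.746) and 1.30 ± 0.50 with FOXP2 (adjusted p = 0.477).

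Mvk, mevalonate kinase, had the largest p of the 4 over all clones. It stood at 32.8, 28.8, 36.2 and 34.6 RPKM with FOXP2-CPED1 and at 46.5, 50.3, 28.3 and 30.6 RPKM with FOXP2, against 26.3 RPKM with vector and 29.2 RPKM in parental cells. Clone 2 of FOXP2-CPED1 and clone 3 of FOXP2 were below the parental value, so the groups overlapped, and the log2 fold change over all clones was 0.34 ± 0.21 (limma adjusted p = 0.707). Hmgcs1, which makes the substrate of the pathway's rate-setting reductase, averaged 43.6 ± 13.4 RPKM with FOXP2-CPED1 (SD, n = 4) and 49.2 ± 19.4 RPKM with FOXP2 (n = 4), against 28.9 ± 1.26 RPKM in the controls (n = 2). Its lowest clones, at 28.1 RPKM in FOXP2-CPED1 clone 4 and 24.3 RPKM in FOXP2 clone 3, were below the vector value. Fdps, the synthase of farnesyl diphosphate, shares a row with Rusc1 and Gm43738. That joined row stood at 113, 112, 155 and 145 RPKM with FOXP2-CPED1 and at 224, 186, 108 and 229.8 RPKM with FOXP2, against 72.7 RPKM with vector and 83.9 RPKM in parental cells, and its log2 fold change was 0.73 ± 0.29 with FOXP2-CPED1 and 1.19 ± 0.29 with FOXP2. The row of Acat2, which makes acetoacetyl-CoA, also holds Mrpl18 and Acat3 and averaged 117 ± 25.1 RPKM with FOXP2-CPED1 and 126 ± 28.8 RPKM with FOXP2, against 82.8 ± 1.65 RPKM in the controls. How much of a joined row belongs to the listed gene cannot be read from the table.

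The late enzymes, from squalene to cholesterol, could be read for 9 of 11 genes, and all 9 had positive log2 fold changes with both constructs. Cyp51, the demethylase that acts on lanosterol, stood at 91.8, 81.3, 143 and 90.7 RPKM in FOXP2-CPED1 clones and at 146, 102, 81.3 and 134 RPKM in FOXP2 clones, against 43.1 RPKM with vector and 44.0 RPKM in parental cells. The lowest clone of each construct was far above both controls, which differed little from each other. Its log2 fold change of 1.17 ± 0.27 with FOXP2-CPED1 (limma adjusted p = 0.154) and of 1.36 ± 0.27 with FOXP2 (adjusted p = 0.0884) missed the threshold, as did 1.26 ± 0.24 over all clones (adjusted p = 0.0640). Fdft1, squalene synthase, which commits farnesyl diphosphate to sterols, stood at 23.5, 16.9, 29.1 and 20.02 RPKM with FOXP2-CPED1 and at 29.8, 33.7, 19.8 and 25.5 RPKM with FOXP2, against 12.7 RPKM with vector and 11.6 RPKM in parental cells. All 8 clones were above both controls, with log2 fold changes of 0.80 ± 0.24 with FOXP2-CPED1 (limma adjusted p = 0.366) and 1.08 ± 0.24 with FOXP2 (adjusted p = 0.122).

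Nsdhl, a dehydrogenase that takes part in removing methyl groups from the sterol ring, stood at 9.89, 10.8, 12.7 and 12.6 RPKM with FOXP2-CPED1 and at 21.2, 17.1, 10.5 and 17.7 RPKM with FOXP2, against 7.39 RPKM with vector and 7.02 RPKM in parental cells. All clones exceeded both controls, and 3 of 4 FOXP2 clones exceeded all FOXP2-CPED1 clones. Msmo1, the methyl sterol oxidase of the same steps, stood at 37.4, 45.8, 61.6 and 43.4 RPKM with FOXP2-CPED1 and at 83.4, 70.2, 23.7 and 83.7 RPKM with FOXP2, against 35.5 RPKM with vector and 28.3 RPKM in parental cells. Its value in FOXP2 clone 3 was below both controls, and over all clones its log2 fold change was 0.70 ± 0.41 (limma adjusted p = 0.672), the largest p of the late enzymes.

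The other 5 late enzymes lay on the same side. Sqle, squalene epoxidase, averaged 74.8 ± 13.6 RPKM with FOXP2-CPED1 and 89.2 ± 33.1 RPKM with FOXP2, against 36.1 ± 1.33 RPKM in the controls. Lss, which closes the sterol rings, averaged 15.6 ± 3.27 RPKM with FOXP2-CPED1 and 22.4 ± 7.52 RPKM with FOXP2, against 10.03 ± 0.934 RPKM in the controls. Hsd17b7, a ketosteroid reductase of the pathway, averaged 6.18 ± 1.34 RPKM with FOXP2-CPED1 and 6.75 ± 2.67 RPKM with FOXP2, against 3.61 ± 0.267 RPKM in the controls. In each of these 3 genes, and in the terminal reductase Dhcr7, all 8 clones were above both controls. The desaturase Sc5d did not separate: it averaged 21.8 ± 4.37 RPKM with FOXP2-CPED1 and 22.6 ± 6.68 RPKM with FOXP2, against 15.8 ± 0.463 RPKM in the controls, and clone 3 of FOXP2 stood at 14.4 RPKM. The joined rows of Tm7sf2 and of Ebp did not show the pattern of the enzymes with rows of their own: the row of Tm7sf2, shared with Zfpl1, Vps51 and Gm28374, had log2 fold changes of -0.31 ± 0.15 with FOXP2-CPED1 and -0.13 ± 0.15 with FOXP2, and that of Ebp and Porcn 0.05 ± 0.14 with FOXP2-CPED1 and 0.04 ± 0.14 with FOXP2.

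**Figure D2:**
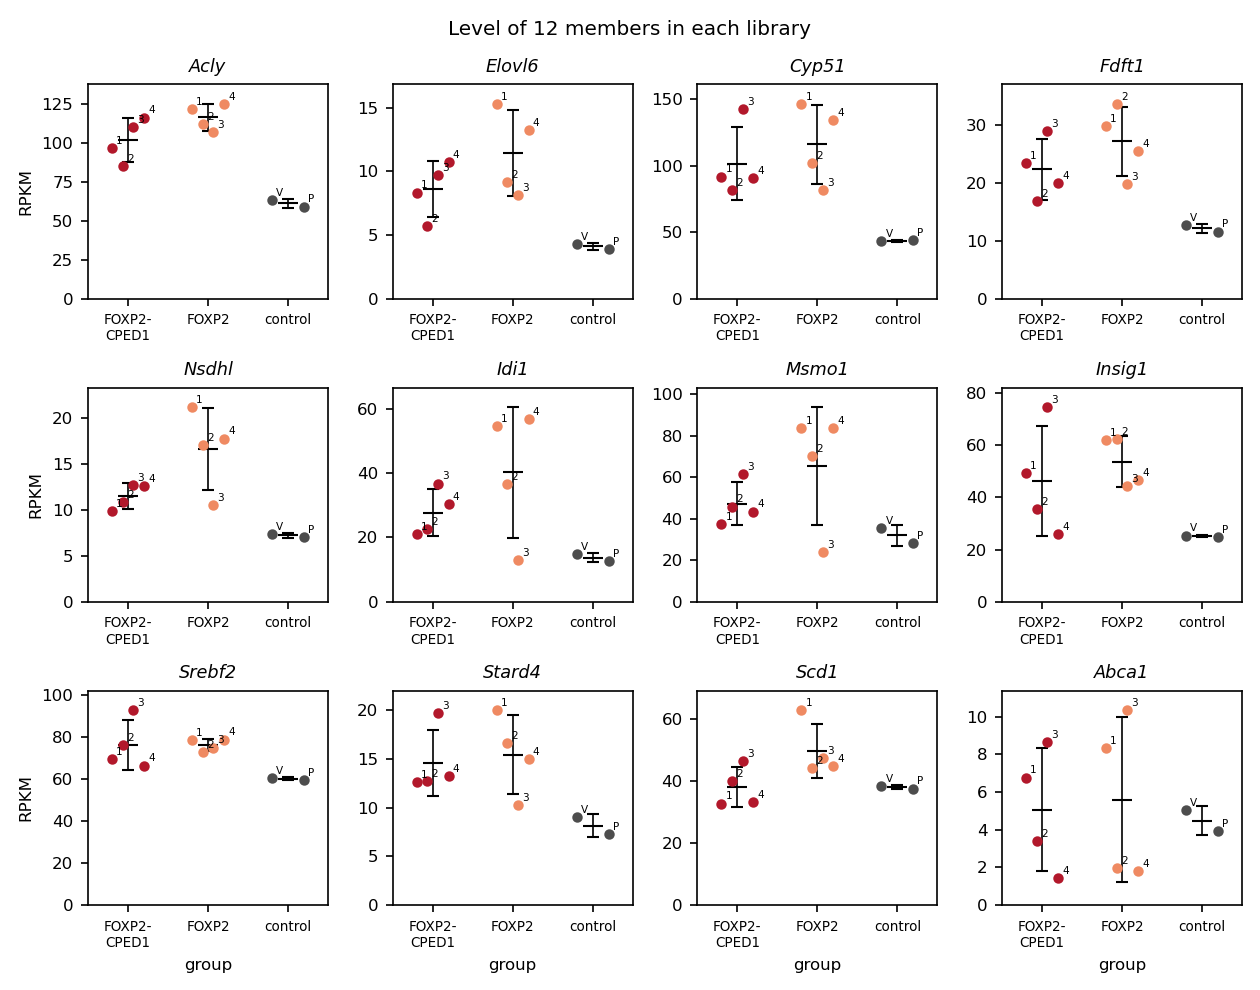
RPKM of 12 genes in each library, with FOXP2-CPED1 clones, FOXP2 clones and controls from left to right; digits are clone numbers, V is vector and P is parent, and bars are means with SD (n = 4, 4 and 2). Acly, Elovl6, Cyp51, Fdft1, Nsdhl, Insig1, Srebf2 and Stard4 lie above both controls in all 8 clones, while Abca1 ranges from 1.43 to 10.3 RPKM among them.

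Among the regulators, Insig1, a membrane protein that retains SCAP and is itself a known SREBP target, showed the largest difference. It stood at 49.5, 35.7, 74.6 and 26.0 RPKM with FOXP2-CPED1 and at 61.9, 62.4, 44.2 and 46.5 RPKM with FOXP2, against 25.3 RPKM with vector and 24.9 RPKM in parental cells. All clones were above both controls, though FOXP2-CPED1 clone 4 exceeded them by less than 1 RPKM. Its log2 fold change was 0.76 ± 0.34 with FOXP2-CPED1 (limma adjusted p = 0.684) and 1.05 ± 0.34 with FOXP2 (adjusted p = 0.366). Srebf2, the gene of SREBP2, stood at 69.3, 76.2, 92.6 and 66.4 RPKM with FOXP2-CPED1 and at 78.3, 72.7, 74.9 and 78.7 RPKM with FOXP2, against 60.6 RPKM with vector and 59.6 RPKM in parental cells. Every clone was above both controls, with log2 fold changes of 0.32 ± 0.15 with FOXP2-CPED1 (limma adjusted p = 0.684) and 0.34 ± 0.15 with FOXP2 (adjusted p = 0.558). Scap, the escort of SREBP, stood at 30.6, 30.9, 36.1 and 32.2 RPKM with FOXP2-CPED1 and at 28.4, 30.1, 33.8 and 24.3 RPKM with FOXP2, against 31.7 RPKM with vector and 29.7 RPKM in parental cells. The groups overlapped, with a log2 fold change over all clones of 0.00 ± 0.14 (limma adjusted p = 0.998). Insig2, the other INSIG protein, averaged 112 ± 26.6 RPKM with FOXP2-CPED1 and 112 ± 40.4 RPKM with FOXP2, against 119 ± 17.1 RPKM in the controls. The row that joins Srebf1, the gene of SREBP1, with its neighbour Tom1l2 averaged 44.6 ± 3.89 RPKM with FOXP2-CPED1 and 41.6 ± 4.06 RPKM with FOXP2, against 47.0 ± 4.68 RPKM in the controls.

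Of the sterol transport genes among the members, only the carrier Stard4 separated from the controls. Stard4, which shuttles cholesterol between membranes and is known as a target of SREBP2, stood at 12.6, 12.8, 19.7 and 13.2 RPKM with FOXP2-CPED1 and at 19.98, 16.6, 10.2 and 14.9 RPKM with FOXP2, against 9.02 RPKM with vector and 7.30 RPKM in parental cells. Its log2 fold change was 0.75 ± 0.26 with FOXP2-CPED1 (limma adjusted p = 0.480) and 0.82 ± 0.26 with FOXP2 (adjusted p = 0.348). Npc1, which exports cholesterol from lysosomes, stood at 18.8, 17.8, 20.1 and 10.98 RPKM with FOXP2-CPED1 and at 18.8, 11.3, 22.6 and 15.2 RPKM with FOXP2, against 18.2 RPKM with vector and 17.2 RPKM in parental cells. Clones lay on both sides of the controls, and the log2 fold change was -0.09 ± 0.28 with FOXP2-CPED1 (limma adjusted p = 0.975) and -0.10 ± 0.28 with FOXP2 (adjusted p = 0.958). Abca1, the exporter of cholesterol to lipoproteins, known as a target of the oxysterol receptors LXR, varied most among clones. It stood at 6.77, 3.38, 8.64 and 1.43 RPKM with FOXP2-CPED1 and at 8.33, 1.94, 10.3 and 1.79 RPKM with FOXP2, against 5.03 RPKM with vector and 3.92 RPKM in parental cells. Values above and below the controls occurred in both constructs, with a log2 fold change over all clones of -0.02 ± 0.62 (limma adjusted p = 0.995).

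In the fatty acid arm, Acly rose in FOXP2 clones. It stood at 96.6, 85.0, 110.3 and 116 RPKM with FOXP2-CPED1 and at 122, 112, 107 and 125 RPKM with FOXP2, against 63.3 RPKM with vector and 59.1 RPKM in parental cells. All 8 clones were above both controls, and the FOXP2 clones lay close together. Its log2 fold change was 0.92 ± 0.15 with FOXP2 (limma adjusted p = 0.0342) and 0.82 ± 0.14 over all clones (adjusted p = 0.0318), and 0.72 ± 0.15 with FOXP2-CPED1 (adjusted p = 0.108). The call with FOXP2 missed the threshold, with limma adjusted p from 0.0529 to 0.474, when any of the following was left out: the parental or the vector library, FOXP2 clone 1, 2 or 4, or FOXP2-CPED1 clone 1 or 3; its log2 fold change then stayed between 0.87 and 0.96. When the 3 libraries with mitochondrial rows at 0 were omitted, its log2 fold change was 0.89 (limma adjusted p = 0.210).

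Elovl6, the elongase that makes stearate from palmitate, stood at 8.33, 5.67, 9.73 and 10.7 RPKM with FOXP2-CPED1 and at 15.3, 9.17, 8.12 and 13.2 RPKM with FOXP2, against 4.30 RPKM with vector and 3.90 RPKM in parental cells. All clones exceeded both controls, with log2 fold changes of 0.88 ± 0.28 with FOXP2-CPED1 (limma adjusted p = 0.406) and 1.25 ± 0.28 with FOXP2 (adjusted p = 0.1201). A second row of the same symbol held 0.00575 to 4.08 RPKM, and with both rows summed, a choice made after seeing the data, Elovl6 passed with FOXP2 (limma adjusted p = 0.0406). Acaca, which makes malonyl-CoA, averaged 18.6 ± 2.86 RPKM with FOXP2-CPED1 and 18.1 ± 6.42 RPKM with FOXP2, against 9.72 ± 2.05 RPKM in the controls. Fasn, the fatty acid synthase, averaged 56.8 ± 4.15 RPKM with FOXP2-CPED1 and 63.9 ± 21.0 RPKM with FOXP2, against 40.8 ± 2.13 RPKM in the controls. Acaca, Fasn and the desaturase Scd2 were above both controls in all 8 clones, and none passed the test. Scd2 had the highest level of all members, at 223 ± 33.9 RPKM with FOXP2-CPED1 and 273 ± 46.5 RPKM with FOXP2, against 167 ± 2.69 RPKM in the controls.

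The remaining fatty acid enzymes stood closer to the controls. Scd1, the other stearoyl-CoA desaturase of the list, stood at 32.7, 40.0, 46.3 and 33.2 RPKM with FOXP2-CPED1 and at 62.7, 44.2, 47.3 and 44.7 RPKM with FOXP2, against 38.3 RPKM with vector and 37.5 RPKM in parental cells. Only the FOXP2 clones were all above the controls. Fads2, a desaturase of polyunsaturated fatty acids, stood at 52.3, 89.3, 78.2 and 100.2 RPKM with FOXP2-CPED1 and at 99.3, 95.0, 71.8 and 90.5 RPKM with FOXP2, against 78.6 RPKM with vector and 80.6 RPKM in parental cells. The groups overlapped, and its log2 fold change over all clones was 0.06 ± 0.22 (limma adjusted p = 0.959). Its neighbour in the pathway, Fads1, averaged 70.1 ± 9.50 RPKM with FOXP2-CPED1 and 81.8 ± 10.6 RPKM with FOXP2, against 70.9 ± 1.55 RPKM in the controls. Acss2, which makes acetyl-CoA from acetate, averaged 5.86 ± 1.15 RPKM with FOXP2-CPED1 and 6.92 ± 0.843 RPKM with FOXP2, against 6.80 ± 1.00 RPKM in the controls. Lpin1, a phosphatidate phosphatase, averaged 6.28 ± 2.42 RPKM with FOXP2-CPED1 and 5.32 ± 2.18 RPKM with FOXP2, against 4.85 ± 0.490 RPKM in the controls. Me1, the malic enzyme that supplies NADPH, averaged 26.1 ± 6.75 RPKM with FOXP2-CPED1 and 27.7 ± 5.82 RPKM with FOXP2, against 32.6 ± 0.537 RPKM in the controls, with log2 fold changes of -0.34 ± 0.25 with FOXP2-CPED1 (limma adjusted p = 0.850) and -0.25 ± 0.25 with FOXP2 (adjusted p = 0.843).

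**Figure D3:**
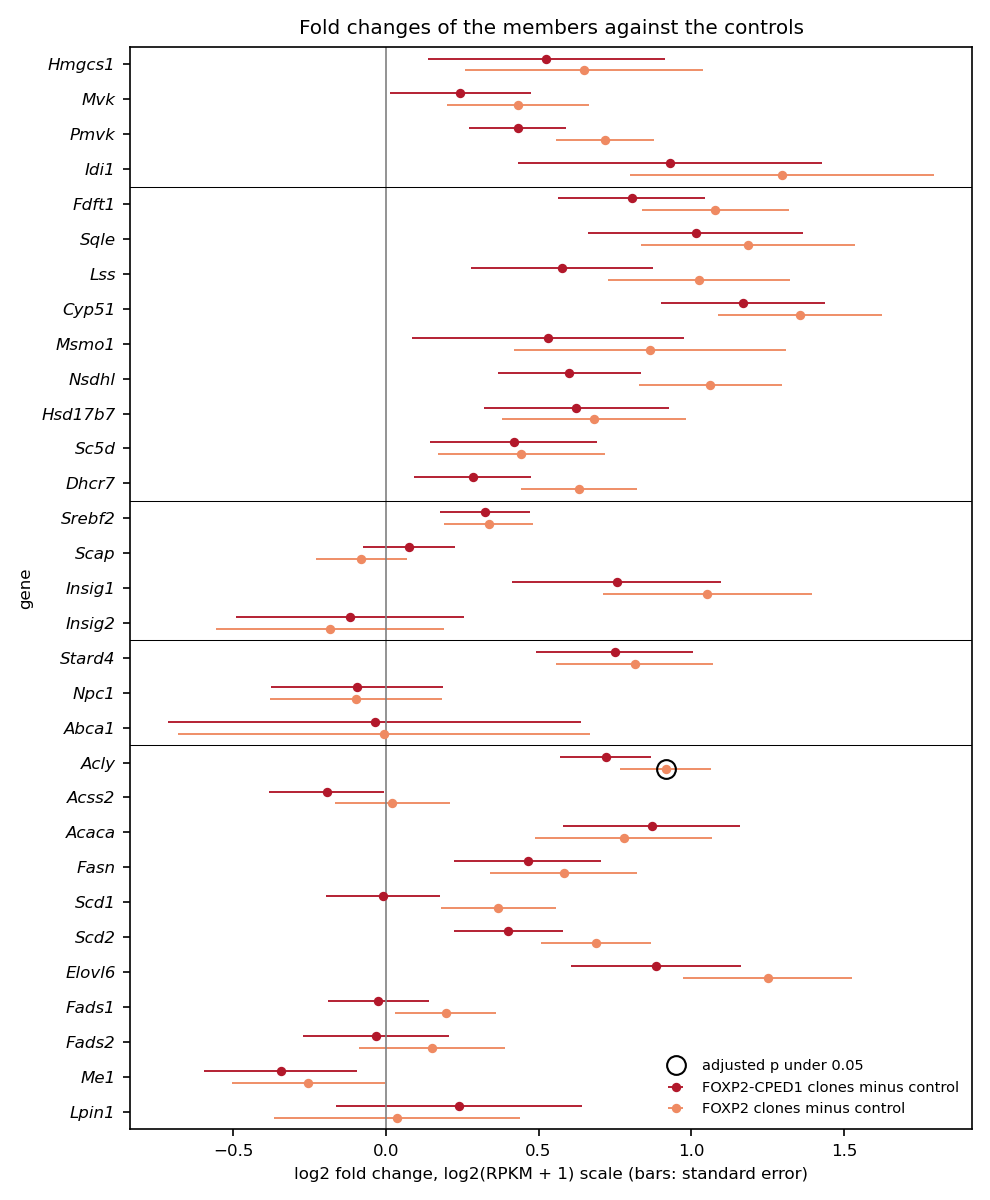
Log2 fold change of each gene against the 2 controls on the log2(RPKM + 1) scale, with standard errors; for each gene the upper point is FOXP2-CPED1 and the lower point FOXP2, and horizontal lines separate mevalonate enzymes, late sterol enzymes, regulators, sterol transport and fatty acid enzymes from top to bottom. All 13 sterol enzymes lie right of 0 with both constructs, and the circle marks Acly with FOXP2, the comparison that passed (adjusted p = 0.0342).

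The sterol arm can be set beside the fatty acid arm library by library, as the median over an arm of log2(RPKM + 1) minus the mean of the controls. With FOXP2-CPED1, clones 1 to 4 had a sterol median of 0.41, 0.52, 0.97 and 0.48 and a fatty acid median of 0.27, 0.31, 0.54 and 0.26. With FOXP2, clones 1 to 4 had a sterol median of 1.23, 0.95, 0.22 and 1.12 and a fatty acid median of 0.57, 0.25, 0.31 and 0.26. The vector library had a sterol median of 0.04 and a fatty acid median of 0.02, and the parental library -0.04 and -0.02. The sterol median was the larger in 7 of 8 clones, by 0.14 to 0.87, and FOXP2 clone 3 was the exception, with a difference of -0.09. Averaged over clones, the difference between the arms was 0.25 ± 0.12 with FOXP2-CPED1 and 0.53 ± 0.42 with FOXP2 (SD, n = 4 each), against 0.00 ± 0.04 in the controls (n = 2). These medians describe chosen genes and carry no test. Counted gene by gene, every clone lay above both controls for 10 of 13 sterol and 5 of 11 fatty acid enzymes with FOXP2-CPED1, and for 8 of 13 and 6 of 11 with FOXP2. Among all tested rows this held for 12.2% with FOXP2-CPED1 and 9.13% with FOXP2.

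**Figure D4:**
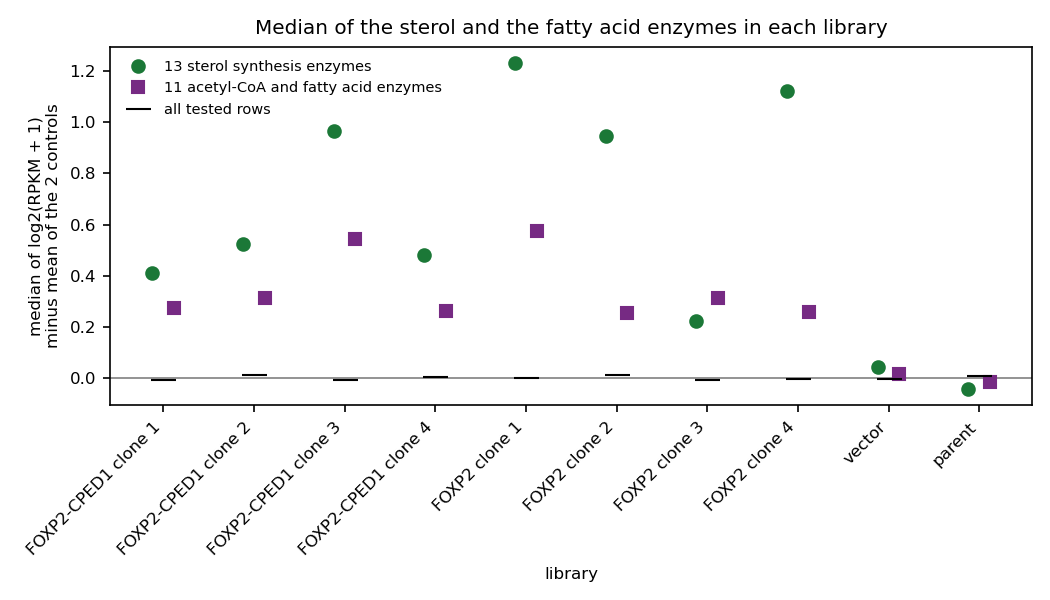
Median over the 13 sterol enzymes (circles) and the 11 acetyl-CoA and fatty acid enzymes (squares) of log2(RPKM + 1) minus the mean of the controls, in each library; dashes give the median of all tested rows. The circle lies above the square in 7 of 8 clones, and FOXP2 clone 3, at 0.22 and 0.31, is the exception.

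Clones of a construct differed from each other in the sterol arm. FOXP2 clone 3 was the lowest of the 4 FOXP2 clones for all 13 sterol enzymes, a place it held in 30.8% of all tested rows, and for 7 of 11 fatty acid enzymes. It was above both controls for 8 of 13 sterol enzymes (41.6% of all tested rows), while FOXP2 clones 1, 2 and 4 were above both for all 13 (40.6%, 45.1% and 41.3% of all tested rows). FOXP2-CPED1 clone 3 was the highest of its 4 clones for 12 of 13 sterol enzymes, against 20.9% of all rows, and for 6 of 11 fatty acid enzymes. It was also the only library of its construct with mitochondrial rows at 0. This library and FOXP2 clones 2 and 4, with the same zeros, had sterol medians of 0.97, 0.95 and 1.12. The other clones had 0.41, 0.52 and 0.48 with FOXP2-CPED1, and 1.23 and 0.22 with FOXP2. A link between these zeros and the sterol values was not tested. The median SD among clones on the log2 scale was 0.26 for sterol and 0.23 for fatty acid enzymes with FOXP2-CPED1 (0.23 over all rows), and 0.44 for sterol and 0.23 for fatty acid enzymes with FOXP2 (0.30 over all rows). With FOXP2 clone 3 left out, 6 members were called higher with FOXP2 by limma (Idi1, Sqle, Cyp51, Msmo1, Nsdhl and Acly, against 0.0862% of all rows) and 5 over all clones (the same without Msmo1, against 0.102%). The median sterol log2 fold change with FOXP2 was then 1.22. Clone 3 was the lowest for these same genes, so its removal had to raise the sterol values, and the added calls are no support. Leaving out FOXP2 clone 1, 2 or 4 instead gave 0 members called with FOXP2. When FOXP2-CPED1 clone 3 was left out instead, the median of the fatty acid enzymes with FOXP2-CPED1 was 0.10, and without FOXP2-CPED1 clone 4 it was 0.44.

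Markers of cell growth and of fibroblasts also varied among these clones. The summed RPKM of 15 proliferation genes was 751, 716, 628 and 1305 in FOXP2-CPED1 clones 1 to 4 and 744, 1425, 494 and 725 in FOXP2 clones 1 to 4, against 735 with vector and 741 in parental cells. FOXP2 clone 3 was lowest in this sum as in the sterol enzymes, while the 2 clones with the highest sums, FOXP2-CPED1 clone 4 and FOXP2 clone 2, had sterol medians of 0.48 and 0.95. The 9 fibroblast markers summed to 6412 to 9282 RPKM with FOXP2-CPED1 and 6019.6 to 8668 RPKM with FOXP2, against 9218 to 9318 RPKM in the controls. Such a sum follows its highest genes. Vim averaged 1827 RPKM over all clones and 2967 RPKM in the controls, while Col1a1 averaged 1095 and 976 RPKM. Over all clones 2 of the 9 had a positive log2 fold change and 7 a negative one. The 3 adipocyte markers with a row summed to 31.9 to 88.8 RPKM with FOXP2-CPED1 and 15.7 to 76.4 RPKM with FOXP2, against 71.3 to 77.5 RPKM in the controls. Most of this sum was Lpl, which overlapped the controls. Pparg and Fabp4 of these 3 were below both controls in every clone, as were 6.38% of all tested rows. The 1 of 6 epithelial markers with a row stood at 0.584 to 2.37 RPKM in the clones, against 0.855 to 0.904 RPKM in the controls. The 3 of 6 immune markers with a row summed to 14.6 to 34.9 RPKM in the clones, against 23.1 to 26.8 RPKM in the controls, and the 2 of 5 hepatocyte markers to 5.85 to 26.2 RPKM, against 8.97 to 25.0 RPKM. The part of these in the sterol values was not tested. When the 3 libraries with mitochondrial rows at 0 were omitted, the sterol median log2 fold change was 0.45 with FOXP2-CPED1 and 0.68 with FOXP2.

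Between the constructs, 5 of 31 members had a positive log2 difference, FOXP2-CPED1 minus FOXP2 (Scap, Insig2, Npc1, Acaca and Lpin1), and the others a negative one. All 13 sterol enzymes were negative (median -0.27) and 9 of 11 fatty acid enzymes were (median -0.20), while the 4 regulators had a median of 0.03 and all rows one of -0.01. Leaving out clone 1, 3 or 4 of FOXP2 gave a sterol median of -0.16, -0.42 or -0.16, leaving out clone 2 of FOXP2-CPED1 gave -0.17, and omitting the 3 libraries with mitochondrial rows at 0 gave -0.18. No member passed limma's test, and no row of the table did (0% of all rows higher and 0% lower), while 135 rows (1.05%) were higher and 143 (1.11%) lower at an unadjusted p under 0.05. In no member were the clones of one construct all above or all below those of the other, which held for 0.576% and 0.802% of all rows. The members with an unadjusted p under 0.05 were Nsdhl, Dhcr7 and Scd1, all lower with FOXP2-CPED1. Nsdhl averaged 11.5 ± 1.37 RPKM with FOXP2-CPED1 and 16.6 ± 4.46 RPKM with FOXP2, a log2 difference of -0.46 ± 0.19. Scd1 averaged 38.0 ± 6.42 RPKM with FOXP2-CPED1 and 49.7 ± 8.75 RPKM with FOXP2, a log2 difference of -0.38 ± 0.15. The differences of Pmvk, Scap and Stard4, the members with the smallest p of their roles, were -0.29 ± 0.13, 0.16 ± 0.12 and -0.07 ± 0.21, and all of these had limma adjusted p = 0.9998. That of Scap was 0.075 without FOXP2 clone 4 and 0.011 without the 3 libraries with mitochondrial rows at 0, and that of Stard4 lay between -0.24 and 0.063 when 1 library was left out.

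The vector and parental cultures had 1 library each, so their difference carries no test. The median log2 difference, vector minus parent, was 0.09 over the sterol enzymes and 0.03 over the fatty acid enzymes, where the median over all tested rows was -0.01. The single sterol enzymes ranged from -0.14 to 0.31.

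Other genes of sterol and lipid handling had medians nearer to 0. Of 23 further sterol genes 16 were tested and none passed with either construct, with a median log2 fold change of -0.02 with FOXP2-CPED1 and 0.17 with FOXP2. Among them Tmem97, an endoplasmic reticulum protein known to bind NPC1 and to respond to sterol, had 0.94 over all clones (limma adjusted p = 0.389), and Scarb1, a receptor for high-density lipoprotein, 0.61 (adjusted p = 0.425); these 2 were picked after their values were seen. At an unadjusted p under 0.05 from limma, 3 of the 16 further sterol genes were higher with FOXP2-CPED1 (2.67% of all rows). With FOXP2 5 of 16 were higher (3.44%), and none was lower with either construct. Every clone lay above both controls for 4 of them with FOXP2-CPED1 (12.2% of all rows) and for 6 with FOXP2 (9.13%). In 1 every FOXP2-CPED1 clone lay below both (13.3%). Of 23 further genes of fatty acid and glycerolipid synthesis 19 were tested and none passed, with medians of 0.00 with FOXP2-CPED1 and -0.04 with FOXP2. Of 16 genes of fatty acid oxidation 15 were tested and none passed, with medians of -0.12 with FOXP2-CPED1 and -0.15 with FOXP2. Of the 19, 3 had every clone above both controls with FOXP2-CPED1 and 5 with FOXP2, and 1 below both with each construct. Of the 15, 0 had every clone above both with FOXP2-CPED1 and 1 with FOXP2, while 3 and 1 lay below both. With FOXP2, 10.4% of all rows lay below both. None of these lists had a member called in the comparison of all clones with the controls (0.0389% of all rows higher and 0.498% lower). With FOXP2-CPED1 0.0234% of all rows were called higher and 0.327% lower, and with FOXP2 0.0389% and 0.397%. The absence of calls in lists of this size is thus close to the rest of the table.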

How the data were processed

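RNA of 10 cultures of NIH3T3 cells was sequenced, and the authors deposited RPKM values in 1 table. Its columns are the libraries, per the file headers. HISAT2, StringTie and the mm9 genome are named in the submitters' processing notes; versions, annotation, strand setting and filters are not stated there or in the labels. RPKM divides reads by transcript length and library total, so levels can be compared between genes, but counts and absolute depth are unknown, no counting interval was computed, and the number of libraries limits the precision. Of 18430 rows, 3581 name no gene (3.37 to 4.54% of a library's summed RPKM) and were left out; 987 join several genes. An exact 0 may be a failed estimate.

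Values were taken as log2(RPKM + 1). Rows that name a gene and reach 1 RPKM in at least 2 libraries (12842) were fitted with limma 3.58.1 in R 4.3.3 (3 arms, all 10 libraries, trend on the mean, two-sided, Benjamini-Hochberg over all tested rows, threshold 0.05). The fit was tested on simulated data. Comparisons were each construct against control, the constructs against each other, and all clones against control. The p-values rest on differences between these cultures. Errors of levels are SDs, and those of fold changes standard errors.

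The members, lists and tests were chosen with earlier results of these data known. Values in every library are given for members past the threshold and, in each role, for those with the 2 smallest and the largest p over all clones and the smallest p between constructs; others are given as means. Promoter windows came from RefSeq (GRCm38.p6), matched by symbol, and were searched on both strands. Alternatives were a pseudocount of 0.1 or 0.25, a mean of at least 5 RPKM or no minimum as the filter, single-gene rows only, quantile normalization, scaling by median ratios, quality weights of libraries, a fit restricted to the arms in question, no trend, the clone number as a block, omission of the 3 libraries with mitochondrial rows at 0, and omission of each library. Counting joined rows as members and summing all rows of a symbol were added after seeing the data.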

Additional observations from a re-analysis of the deposited data

Results flagged for a closer look

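In 3 of 66 groups of 4 clones, 1 clone stood far from the rest by Dixon's criterion, which chance meets in about 1 of 20 groups; its gap to the nearest clone was 0.835 to 0.921 of the group's range. Lss was 20.5 RPKM in FOXP2-CPED1 clone 3 and 13.7 to 14.4 RPKM in the other 3 clones. Stard4 was 19.7 RPKM in FOXP2-CPED1 clone 3, the same library, and 12.6 to 13.2 RPKM in the other 3 clones. Mitochondrial rows were at 0 in that library and not in the other 3. Scd1 was 62.7 RPKM in FOXP2 clone 1 and 44.2 to 47.3 RPKM in the other 3 clones.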

How the results depend on the processing

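The median of the sterol enzymes kept its sign and moved by less than the spread between clones under every alternative run, from 0.45 to 0.67 with FOXP2-CPED1, 0.68 to 1.22 with FOXP2 and 0.55 to 0.95 over all clones. All 13 sterol enzymes stayed positive against the controls, and negative between the constructs, under quantile normalization and under scaling by median ratios. The counts of members called, the median of the fatty acid enzymes and the sign of genes near 0 depended on the processing, and the cause was not tested.

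With FOXP2 the 1 member called (Acly) became 0 with quantile normalization, with only the arms compared, with clone numbers as a replicate block and without the libraries with mitochondrial rows at 0, where its adjusted p from limma was 0.0503, 0.140, 0.0680 and 0.210; it became 2 with all rows of a member summed, and 23 with library quality weights. Over all clones the 1 became 0 with the block and without the libraries with mitochondrial rows at 0, and 21 with weights (6.35% of all rows were then called higher), and with FOXP2-CPED1 the 0 became 12 with weights (2.67% of all rows). The weights ran from 0.196 (FOXP2 clone 2) to 6.62 (FOXP2 clone 1), and 7.89% of all rows were then called higher with FOXP2. Leaving out 1 clone at a time gave 0 to 6 members with FOXP2 and 0 to 5 over all clones. In these fits at most 64 and 82 of all tested rows were called, in either direction. Fits without a control library leave 1 control, and their counts are left out here. The fatty acid median was 0.47 with FOXP2-CPED1, 0.56 with FOXP2 and 0.46 over all clones with weights; with FOXP2-CPED1 it was 0.10 (0.0959) without the libraries with mitochondrial rows at 0, and 0.0959 to 0.44 when 1 library was left out.

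Genes near 0 changed sign. Over all clones Scap became 0.00522 (quantile normalization) and 0.0198 (without the libraries with mitochondrial rows at 0), and Abca1 0.00759, 0.30 and, with weights, 0.48. Npc1 became 0.0569 with FOXP2-CPED1, 0.0534 with FOXP2 and 0.0552 over all clones with weights, and 0.206 with FOXP2 and 0.0115 over all clones without the libraries with mitochondrial rows at 0. With 1 library left out, the ranges that crossed 0 were -0.0493 to 0.0448 for Scap, -0.20 to 0.17 for Abca1 and -0.00141 to 0.15 for Fads2 over all clones, -0.18 to 0.0897 with FOXP2-CPED1 and -0.24 to 0.0690 with FOXP2 for Npc1, and -0.24 to 0.0629 between constructs for Stard4.

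Same-numbered clones of the 2 constructs correlated at -0.04, -0.24, 0.28 and 0.17 in their deviations from the construct means. Differently numbered clones ran from -0.43 to 0.39. The values thus showed no pairing by number, but so few clones cannot exclude one. Control cultures of 1 library each, and 1 library a clone, limit all tests.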
